A study of Meleagris gallopavo with 12 samples.

Results

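Vasoactive intestinal peptide (VIP), prolactin (PRL) and the prolactin receptor (PRLR) were followed in premammillary tissue of turkey hens, from the mediobasal hypothalamus. The members were all array probes whose description carried 1 of these 3 gene symbols, which gave 3 genes with 1 probe each, among 5536 genes with a symbol on the array. All 3 probes were measured on 6 of 6 arrays, and they are 3 of the 5182 named genes that entered the fit. The probes were designed on chicken mRNA and hybridised with turkey RNA, so the level of one probe was not set against that of another.

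Samples were pools of premammillary tissue from 6 adult female turkeys (Meleagris gallopavo), with 4 pools in each of 3 groups. Long-day photorefractory (LDPR) hens had been on long days through a whole reproductive cycle and the moult, and the sources used here do not give the hours of light in that schedule. Long-day photosensitive (LDPS) hens received 16 h of light and 8 h of darkness for 10 days. Short-day photosensitive (SDPS) hens lived under 6 h of light and 18 h of darkness. The 12 pools were hybridised in pairs on 6 arrays with 2 dyes, so that each pair of groups met directly on 2 arrays, 1 in each dye orientation. Pooling averages 6 hens, and the p-values rest on the spread between pools and arrays, part of which may be technical. The spread of each probe is drawn toward a value shared by all probes (prior SD 0.19, 6.64 prior and 2 to 3 residual degrees of freedom). In dissected tissue, fewer cells of a type and less RNA per cell cannot be told apart.

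In birds, VIP is a neuropeptide of the hypothalamus that reaches the pituitary and releases prolactin, and its best known source is the infundibular region. Prolactin is made mainly by lactotroph cells of the anterior pituitary and is known in turkeys for its part in incubation behaviour. Its receptor is a class I cytokine receptor that signals through JAK kinases and STAT factors, and in vertebrates it is found in the hypothalamus and, at high levels, in the choroid plexus. The study compared hens that can still respond to long days with hens that no longer do.

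Marker genes are read here for detection, and their differences between groups are given further below. All 7 measured neuron markers and all 5 measured markers of the dopamine-melatonin cells of the premammillary nucleus, tyrosine hydroxylase (TH) included, exceeded the 95th percentile of empty spots (the empty-spot level) in all pools. So did all 5 measured markers of choroid plexus and ependyma and all 3 red blood cell genes. Most probes passed that level, so passing it does not identify the tissue. The share of probes past that level was 79.3% in LDPR pool 2 and ran from 91.6% to 96.6% in the other 11 pools. LDPR pool 2 therefore stood apart, and member values whose direction turned without its array are also given without it.

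None of the 3 genes passed the test over all 18012 probes in any comparison as fitted here (limma, Benjamini-Hochberg adjusted p under 0.05). VIP in LDPR against LDPS hens passed in 1 of 18 alternative fits (limma adjusted p = 0.0343), one that called 7.89% of probes. PRLR gave the most regular pattern, and it read lower in LDPS hens than in both other groups. VIP read lowest in LDPR hens, with more spread between arrays. PRL was near the detection limit and had no stable order of groups. The 4 pools of one group overlapped with the 4 of the other for each member in each comparison, and levels without overlap were found for 2.15% of probes in LDPR against LDPS hens, 0.979% in LDPR against SDPS hens and 0.985% in LDPS against SDPS hens.

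VIP exceeded the empty-spot level in 12 of 12 channels, at 6.06 to 32.0 times that level. Its normalised log2 intensity was 9.03, 8.53, 8.37 and 8.89 in LDPR pools 1 to 4, against 9.19, 9.75, 8.64 and 9.24 in LDPS pools 1 to 4 and 9.02, 9.56, 8.66 and 9.31 in SDPS pools 1 to 4. LDPR pools 2 and 3 lay below every pool of the other groups, while LDPR pools 1 and 4 fell within their range. The mean level was 8.70 ± 0.30 in LDPR hens, 9.20 ± 0.45 in LDPS hens and 9.14 ± 0.38 in SDPS hens (SD, n = 4 each). By level the order was LDPS, SDPS, LDPR. LDPS and SDPS differed by less than either SD. LDPR minus SDPS was -0.43 on this scale, more than either SD, although a level holds the brightness of the spot as well as the RNA.

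Ratios taken within an array are free of that brightness. VIP had log2 ratios of -0.27 and -0.35 on the arrays that set LDPR against LDPS hens. The arrays that set LDPR against SDPS hens gave 0.36 for LDPR pool 1 and -0.77 for LDPR pool 2, which differ in sign. Those of LDPS against SDPS hens gave 0.16 and 0.19. VIP thus lay on the same side of 0 on both direct arrays in the comparisons that involve LDPS hens.

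Part of that agreement depended on the dye. The dye term for VIP, the log2 excess of Alexa Fluor 647 over 555, was 0.20. Once it was removed, the ratios of LDPR over LDPS hens were -0.47 and -0.15, those of LDPR over SDPS hens 0.16 and -0.57, and those of LDPS over SDPS hens -0.04 and 0.39.

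In the fit over all 6 arrays, VIP in LDPR hens was 0.793 times its level in LDPS hens (log2 fold change -0.33, SE 0.15, 95% interval -0.67 to 0.01, unadjusted p = 0.0533, limma adjusted p = 0.365). In this comparison 0.0167% of probes passed after adjustment, 3 in all, and 23.5% had both direct arrays below 0, as VIP did. LDPR against SDPS hens gave -0.18 (95% interval -0.52 to 0.16, limma adjusted p = 0.737), and LDPS against SDPS hens gave 0.15 (-0.19 to 0.49, limma adjusted p = 1.00). In the last comparison 22.6% of probes had both direct arrays above 0, as VIP did.

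Single arrays weighed on the VIP values. When the array of LDPR pool 2 was left out, the log2 fold change of LDPR over SDPS hens was 0.08 and that of LDPR over LDPS hens was -0.20. When the array shared by LDPS pool 2 and SDPS pool 2 was left out, LDPS over SDPS hens gave -0.01. The fit left a residual SD of 0.373 for VIP, a value exceeded by 7.54% of probes.

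PRLR exceeded the empty-spot level in 12 of 12 channels too, at 5.0 to 14.5 times that level. Its normalised log2 intensity was 8.11, 8.26, 8.14 and 8.34 in LDPR pools 1 to 4, against 8.21, 8.30, 7.85 and 8.09 in LDPS pools 1 to 4 and 8.34, 8.58, 8.24 and 8.18 in SDPS pools 1 to 4. LDPS pool 3 was the lowest of the 12 and SDPS pool 2 the highest. The mean level was 8.21 ± 0.11 in LDPR hens, 8.11 ± 0.20 in LDPS hens and 8.34 ± 0.18 in SDPS hens (SD, n = 4 each). By level the order was SDPS, LDPR, LDPS, and neighbours in it differed by less than the larger of their SDs. LDPS minus SDPS was -0.22, more than either SD.

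**Figure D1:**
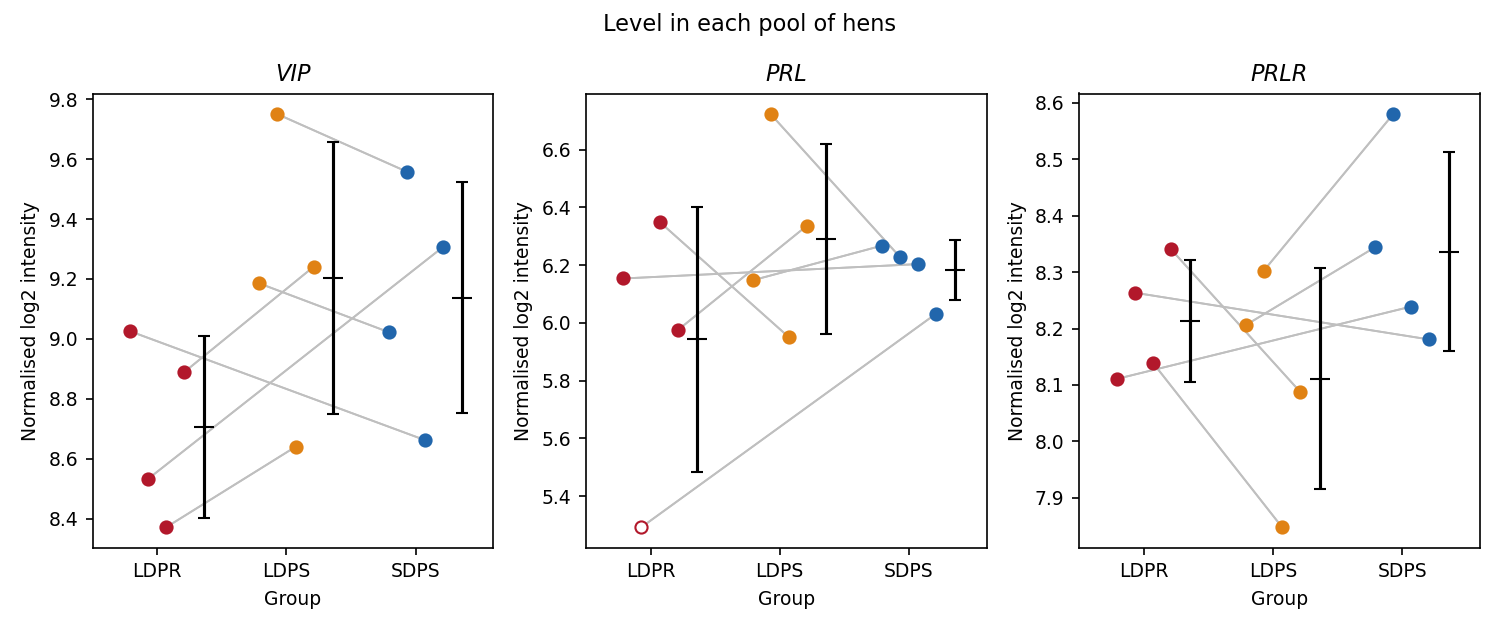
Normalised log2 intensity of VIP, PRL and PRLR in each pool (vertical axis, own range per gene) for LDPR, LDPS and SDPS hens, with grey lines joining the pools that shared an array and the black mark and bar giving the mean and SD of 4 pools. The open point is PRL in LDPR pool 2, which was not above the empty-spot level, and the 3 groups overlap for each gene.

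Within arrays the PRLR ratios were close between the dye orientations. LDPR over LDPS hens gave log2 ratios of 0.29 and 0.25. LDPR over SDPS hens gave -0.13 and 0.08, on either side of 0. LDPS over SDPS hens gave -0.14 and -0.28, so that LDPS hens were the low group on all 4 arrays that held them. The dye term was -0.01, and the residual SD of 0.112 was exceeded by 79.0% of probes.

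The fitted PRLR level in LDPR hens was 1.18 times that in LDPS hens (log2 fold change 0.24, SE 0.10, 95% interval 0.02 to 0.47, unadjusted p = 0.0355, limma adjusted p = 0.320). LDPS hens had 0.849 times the level of SDPS hens (log2 fold change -0.24, 95% interval -0.46 to -0.01, unadjusted p = 0.0396, limma adjusted p = 1.00). LDPR over SDPS hens gave 0.01 on the log2 scale, with an interval of -0.22 to 0.23, which are folds from 0.861 to 1.17. Without the array of LDPR pool 2 this value was -0.041.

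These PRLR values were read against all probes. A smaller p than that of PRLR was found for 11.1% of probes in LDPR against LDPS hens, and 14.6% had a smaller p than VIP. In LDPR against LDPS hens 13.9% of probes had an unadjusted p under 0.05 and 24% had both direct arrays above 0. In LDPS against SDPS hens 4.33% had an unadjusted p under 0.05 (3.03% higher and 1.3% lower in LDPS hens), 24.1% had both direct arrays below 0, and 0% passed after adjustment. Pools with the same number deviated together in that comparison, although those numbered 1 and those numbered 2 also shared an array. A fit on separate channels with the number as a block called 0.257% of probes in LDPS against SDPS hens. Separate channels without the block called 0.0299%. GAL and ESR2 were called in both fits, so their calls do not rest on the block. FSHB and HBG2 were called only with it. No member was called in either fit (PRLR -0.23 with the block, limma adjusted p = 0.242). The F test for any difference among the 3 groups gave a limma adjusted p of 0.484 for PRLR, 0.603 for VIP and 0.845 for PRL, where 0.0111% of probes passed after adjustment and 10.8% had an unadjusted p under 0.05.

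PRL was close to the limit of detection. Its signal was 0.686 to 3.73 times the empty-spot level, and 11 of 12 channels exceeded that level. The exception was LDPR pool 2. Spot confidence, a score given to each spot at quantification with 1 as the highest, was 0.16 to 0.63 for PRL over the arrays. It was 0.70 to 0.91 for VIP and 0.80 to 0.91 for PRLR.

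The normalised log2 intensity of PRL was 6.15, 5.29, 6.35 and 5.97 in LDPR pools 1 to 4, against 6.15, 6.72, 5.95 and 6.34 in LDPS pools 1 to 4 and 6.27, 6.23, 6.20 and 6.03 in SDPS pools 1 to 4. LDPR pool 2 was the lowest and LDPS pool 2 the highest, and the SDPS pools lay between them. Means were 5.94 ± 0.46 in LDPR hens, 6.29 ± 0.33 in LDPS hens and 6.18 ± 0.10 in SDPS hens (SD, n = 4 each). By level the order was LDPS, SDPS, LDPR, and neighbours in it differed by less than the larger of their SDs.

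PRL ratios differed in sign between the arrays of 2 comparisons. LDPR over LDPS hens gave 0.40 and -0.36, and LDPS over SDPS hens gave -0.12 and 0.49. LDPR over SDPS hens gave -0.05 for LDPR pool 1 and -0.74 for LDPR pool 2, both below 0, as for 18.7% of probes, while 17.6% had both above 0. The 3 direct differences should cancel around the loop of groups, and they missed by 0.60 for PRL, 0.07 for VIP and 0.09 for PRLR. The residual SD of PRL, 0.529, was exceeded by 1.55% of probes.

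Fitted differences of PRL had intervals wide enough to hold a change of either sign. LDPR over LDPS hens gave -0.18 (95% interval -0.62 to 0.25, limma adjusted p = 0.699). LDPR over SDPS hens gave -0.19 (-0.63 to 0.24, limma adjusted p = 0.777), and 0.08 when the array of LDPR pool 2 was left out. In that comparison 0% of probes passed after adjustment and 9.36% had an unadjusted p under 0.05, 3.48% higher and 5.88% lower in LDPR hens. LDPS over SDPS hens gave -0.01 (-0.45 to 0.42, limma adjusted p = 1.00), which are folds from 0.733 to 1.34, and 0.12 without the array of LDPR pool 2.

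**Figure D2:**
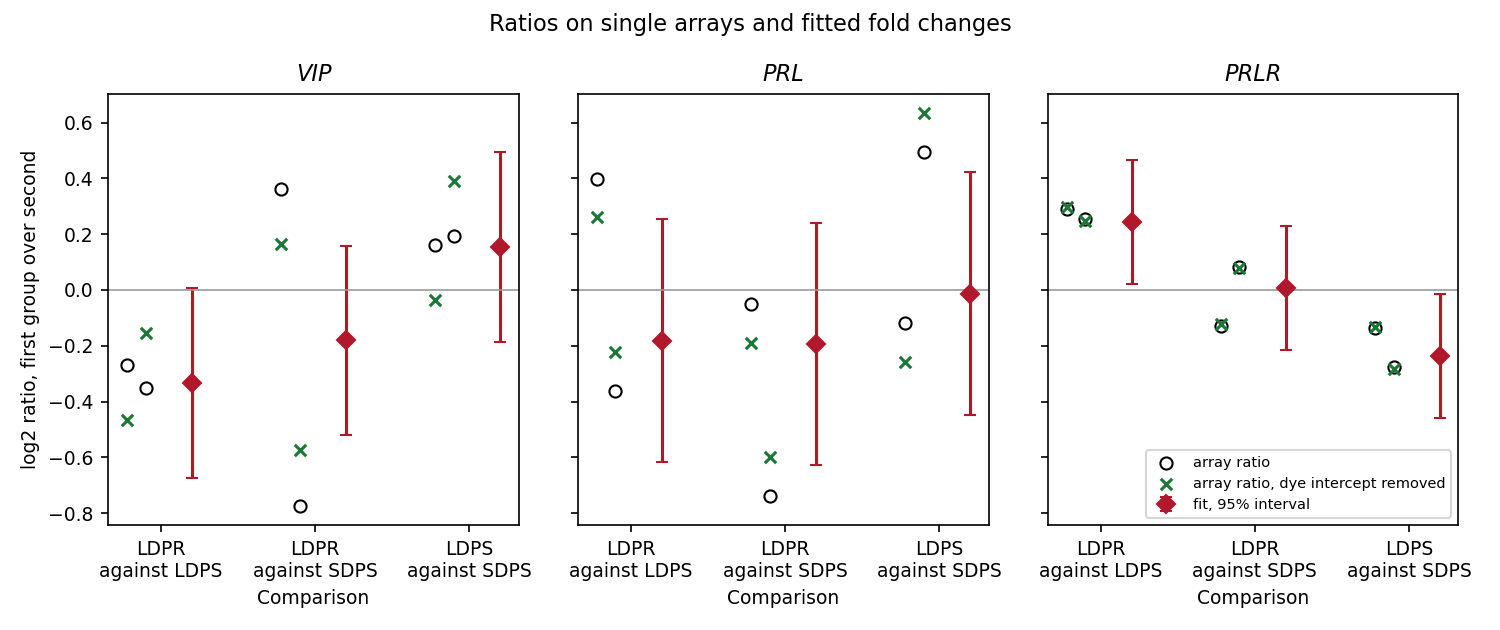
Log2 ratios of single arrays (open circles), the same after the dye term was removed (crosses) and the fitted log2 fold change with its 95% interval (red diamonds) for VIP, PRL and PRLR in LDPR against LDPS, LDPR against SDPS and LDPS against SDPS hens. The PRLR arrays of LDPR over LDPS hens lie at 0.29 and 0.25, while the VIP arrays of LDPR over SDPS hens lie at 0.36 and -0.77.

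VIP and PRLR had ratios of opposite sign on 6 of 6 arrays, against 3 of 6 for VIP and PRL and 3 of 6 for PRL and PRLR. Pearson's r over the 6 arrays was -0.70 between VIP and PRLR, 0.61 between VIP and PRL and -0.27 between PRL and PRLR. These are descriptions of arrays that share pools and hybridisations. With the dye term removed, the ratios of LDPS pool 1 over SDPS pool 1 were -0.04 for VIP and -0.13 for PRLR, and the opposition in sign did not hold on that array.

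The genes whose ratios followed each member most closely over the 6 arrays, by Pearson's r among 4709 named genes, differed between the members. For VIP they were MYC, a transcription factor of cell growth (r = 0.990), GLIPR1 (r = 0.985) and PPP1R13B (r = 0.981). For PRL they were PSMF1, a proteasome inhibitor subunit (r = 0.993), SLC27A4, a fatty acid transporter (r = 0.982), and ST6GALNAC5, a sialyltransferase (r = 0.982). For PRLR they were HNRNPR, an RNA-binding protein (r = 0.993), LRPAP1, a chaperone of lipoprotein receptors (r = 0.990), and COX7A2L (r = 0.986). These are the highest of 4709 coefficients over 6 points, and r compares the shape of a pattern and not its level.

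The VIP peptide family and its receptors had 9 measured genes, VIP included. None passed after adjustment. In LDPR against LDPS hens 4 had positive and 5 negative log2 fold changes, with a median of -0.13, beside -0.01 over all probes. Without VIP, 4 of 8 were positive and the median was -0.04. VIP was the most negative of the 9, but a secretin probe without a symbol, not counted among them, gave -0.37. VIPR1, a receptor for VIP and PACAP, gave 0.31 in LDPR over LDPS hens (unadjusted p = 0.129), with direct arrays of -0.34 and 0.43. Its level was 7.71 ± 0.64 in LDPR hens, 7.28 ± 0.18 in LDPS hens and 7.80 ± 0.43 in SDPS hens (SD, n = 4 each).

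ADCYAP1R1, the PACAP-preferring receptor, had a level of 8.31 ± 0.31 in LDPR hens, 8.51 ± 0.63 in LDPS hens and 8.78 ± 0.58 in SDPS hens (SD, n = 4 each). It gave 0.21 in LDPR over LDPS hens (unadjusted p = 0.0534), with direct arrays of 0.21 and 0.21. In LDPS over SDPS hens it gave -0.33 (SE 0.10, unadjusted p = 0.00658, limma adjusted p = 1.00), with direct arrays of -0.45 and -0.20. These are the signs of PRLR in both comparisons, which share the LDPS pools and so are not separate agreements. By mean level ADCYAP1R1 was lower in LDPR than in LDPS hens, against the sign of its fit. In LDPR over SDPS hens ADCYAP1R1 gave -0.12.

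Peptide relatives of VIP were read in LDPR over LDPS hens. ADCYAP1, which encodes PACAP, gave -0.14 (unadjusted p = 0.275), with direct arrays of -0.34 and 0.06, and GIP, an incretin, gave -0.24 (unadjusted p = 0.0491). A probe described as secretin but without a symbol, chosen by its description after values had been seen, gave -0.37 (unadjusted p = 0.00936, limma adjusted p = 0.231). GCG, the glucagon precursor, gave 0.045 in LDPR over LDPS hens, and -0.26 in LDPS over SDPS hens (unadjusted p = 0.0428), where VIP gave 0.15. The direct arrays of GCG in LDPS over SDPS hens were -0.29 and -0.01. By mean level GCG was higher in LDPS hens (7.47 ± 0.49) than in SDPS hens (7.36 ± 0.28), against the sign of its fit (SD, n = 4 each). VIPR2 and GHRH are not analysed here.

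Genes that act on VIP or prolactin cells were measured for 14 transmitters, peptides and receptors. This list was chosen with earlier results of these data known, so its counts are not a test of the list. In LDPR against LDPS hens 4 of the 14 were higher and 2 lower in LDPR hens at an unadjusted p under 0.05. Of all probes, 4.96% were higher and 8.98% lower. One passed after adjustment, galanin (GAL), which releases prolactin in mammals, with 1.19 in LDPR over LDPS hens (SE 0.11, limma adjusted p = 0.0129). The call was lost without the array that held LDPR pool 1, 3 or 4 or LDPS pool 1, with a lowest value of 1.07. It was also lost with all spots kept, without the dye term and on direct arrays only (limma adjusted p = 0.212, 0.346 and 0.998). ESR2, an oestrogen receptor (0.60), NPVF, which encodes gonadotropin-inhibitory hormone (1.09), and TRH, a releasing hormone that also acts on prolactin cells (0.49, unadjusted p = 0.00358), were the other higher genes. DBH, of noradrenaline synthesis (-0.42), and the dopamine receptor DRD4 (-0.29) were the lower ones. With 1 array left out, ESR2 ran from 0.30 to 0.83, NPVF from 0.72 to 1.33 and DRD4 from -0.37 to -0.13, and the direct arrays of ESR2 were 1.18 and 0.13.

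Dopamine restrains prolactin cells through the receptor DRD2, which gave -0.08 in LDPR over LDPS hens (unadjusted p = 0.437). TH, the rate-limiting enzyme of dopamine synthesis, gave 0.00 in LDPR over LDPS hens and 0.23 in both other comparisons (unadjusted p = 0.0356 for LDPR over SDPS hens and 0.0372 for LDPS over SDPS hens). Its level was 6.34 ± 0.05 in LDPR hens, 6.64 ± 0.29 in LDPS hens and 6.35 ± 0.39 in SDPS hens (SD, n = 4 each). By mean level TH was thus lower in LDPR than in LDPS hens and no higher in LDPR than in SDPS hens, unlike its fit. DRD1, PDYN and GNRH1 are not analysed here.

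PRLR signalling was measured for 20 genes, PRLR included. At an unadjusted p under 0.05 there was 1 of 20 in LDPR against LDPS hens, where 13.9% of all probes were. There was 1 of 20 in LDPS against SDPS hens (4.33% of all probes) and 0 of 20 in LDPR against SDPS hens (9.36%). The 1 gene was PRLR each time, and these counts do not set the list or PRLR apart from other probes. In LDPR against LDPS hens 14 were positive and 6 negative, with a median of 0.05, where 55.5% of all tested probes with a gene symbol were above 0. In LDPS against SDPS hens 6 were positive and 14 negative, with a median of -0.04, where 42.9% of those probes were above 0. The feedback inhibitors CISH, SOCS1 and SOCS2 gave -0.21, -0.11 and 0.05 in LDPR over LDPS hens, and SOCS1 and SOCS2 were missing in some pools. A probe described as similar to SOCS1 but without a symbol exceeded the empty-spot level in 12 of 12 channels. It gave 0.097 in LDPR over LDPS hens (limma unadjusted p = 0.370), opposite in sign to the SOCS1 probe. STAT3 gave -0.15 with its brighter probe and 0.06 with the other, so that its direction is uncertain. JAK2 was not tested, and STAT5A, STAT5B and SOCS3 are not analysed here.

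Class I cytokine receptors, the family of PRLR, had 9 measured members, of which 5 were positive in LDPR against LDPS hens and 2 in LDPS against SDPS hens. PRLR had the highest value in the first comparison and the lowest in the second. Both fits use the LDPS pools, so these are not separate agreements. GHR, the growth hormone receptor and a close relative of PRLR, gave 0.18 in LDPR over LDPS hens (unadjusted p = 0.0918), and LEPR, the leptin receptor, gave 0.20 (unadjusted p = 0.0814). CSF3R gave -0.26 in LDPR over SDPS hens, where PRLR gave 0.01.

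Genes tied to prolactin and growth hormone production in the pituitary had 11 measured members, PRL included, and none passed after adjustment. In LDPR over LDPS hens PRKACB, a subunit of protein kinase A, gave 0.30 and PITX1, a pituitary transcription factor, gave -0.38, beside -0.18 for PRL. GH1, growth hormone, gave -0.12 (unadjusted p = 0.356). POU1F1 was not tested.

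**Figure D3:**
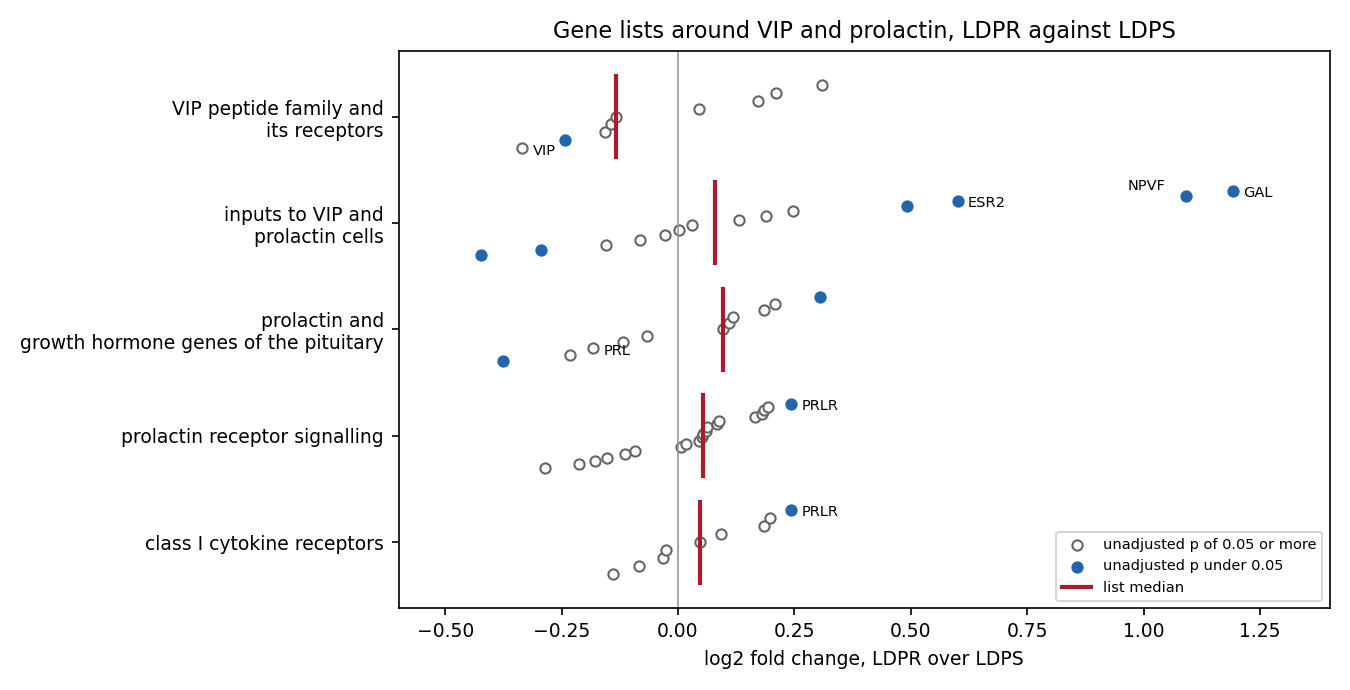
Log2 fold change of LDPR over LDPS hens (horizontal axis) for the measured genes of 5 lists around VIP and prolactin, 1 point per gene, filled where the unadjusted p was under 0.05, with the red line at the list median. VIP lies at -0.33, PRL at -0.18 and PRLR at 0.24, and GAL at 1.19 is the only point past adjustment.

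Markers of other tissues were read beside the members. Of pituitary markers other than PRL, 5 were measured, and their summed log2 level was 12.4 to 12.7 in LDPR pools, 12.2 to 12.8 in LDPS pools and 12.1 to 12.5 in SDPS pools. All exceeded the empty-spot level in at least 3 pools of each group. FSHB, the follicle-stimulating hormone subunit, gave -0.73 in LDPR over LDPS hens (limma adjusted p = 0.140), and POMC gave 0.09, beside -0.18 for PRL. The part of pituitary tissue in the PRL values was not tested.

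Choroid plexus and ependyma, where PRLR is abundant, had 5 measured markers besides PRLR, all past the empty-spot level in every pool. Their summed log2 level was 10.6 to 11.1 in LDPR pools, 10.6 to 10.7 in LDPS pools and 10.6 to 11.1 in SDPS pools. Transthyretin (TTR), a plexus marker, gave 2.33 in LDPR over LDPS hens (SE 0.60, limma adjusted p = 0.180), but its direct arrays were 4.02 and -0.73. TEKT1, a cilium gene of ependyma, gave 0.27 (unadjusted p = 0.053), with direct arrays of 0.37 and 0.24. FOLR1 gave 0.07, CLDN2 -0.04 and MSX1 -0.13, beside 0.24 for PRLR. The part of these cells in the PRLR values was not tested.

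Red blood cell genes had the signs of VIP in LDPR over LDPS and in LDPS over SDPS hens, which share the LDPS pools. These are therefore not separate agreements. In LDPR over SDPS hens HBZ gave 0.04, and HBA1 and HBG2 were negative, as VIP was. HBA1 and HBG2 gave -0.99 and -0.80 in LDPR over LDPS hens, and 0.66 and 0.71 in LDPS over SDPS hens, and neither passed after adjustment in the reported fit. In LDPR over LDPS hens HBA1 passed under 5 alternatives and HBG2 under 2. HBZ gave 0.23 in LDPS over SDPS hens. The summed log2 level of the 3 genes was 11.97 to 12.5 in LDPR pools, 12.6 to 13.7 in LDPS pools and 12.6 to 12.8 in SDPS pools. The part of blood in the VIP values was not tested.

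Among 11 measured hypothalamic peptide genes, VIP and oxytocin (OXT) were the only ones with a positive log2 fold change in LDPS over SDPS hens. Of all tested probes with a gene symbol, 42.9% were above 0 in that comparison. Neither sign was firm (limma unadjusted p = 0.338 for VIP and 0.634 for OXT), and VIP gave -0.01 with 1 array left out. The list had a median of -0.13 in LDPS over SDPS hens and of 0.13 in LDPR over LDPS hens, beside 0.15 and -0.33 for VIP. Neurotensin (NTS) gave 0.36 and urotensin 2 (UTS2) -0.59 in LDPR over LDPS hens. The direct arrays of UTS2 were -0.51 and 0.10, and it ran from -1.13 to -0.39 with 1 array left out. Of the 7 neuron markers, NEFM gave 0.23 in LDPS over SDPS hens and MAP2 gave 0.35 in LDPR over SDPS hens, and none passed after adjustment.

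PRLR kept its direction in LDPR against LDPS and in LDPS against SDPS hens over 18 other settings of normalisation, filter, model and arrays. Some of these could not have turned it. The filter on dim probes left every probe in, and with balanced dye orientations the dye term does not move a member's fold change. The log2 fold change of PRLR ran from 0.20 to 0.29 in LDPR over LDPS hens and from -0.31 to -0.19 in LDPS over SDPS hens. Both comparisons use the LDPS pools, so these are not separate agreements. VIP ran from -0.45 to -0.20 in LDPR over LDPS hens, and from -0.41 to 0.08 in LDPR over SDPS hens. PRL crossed 0 in each of its 3 comparisons.

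**Figure D4:**
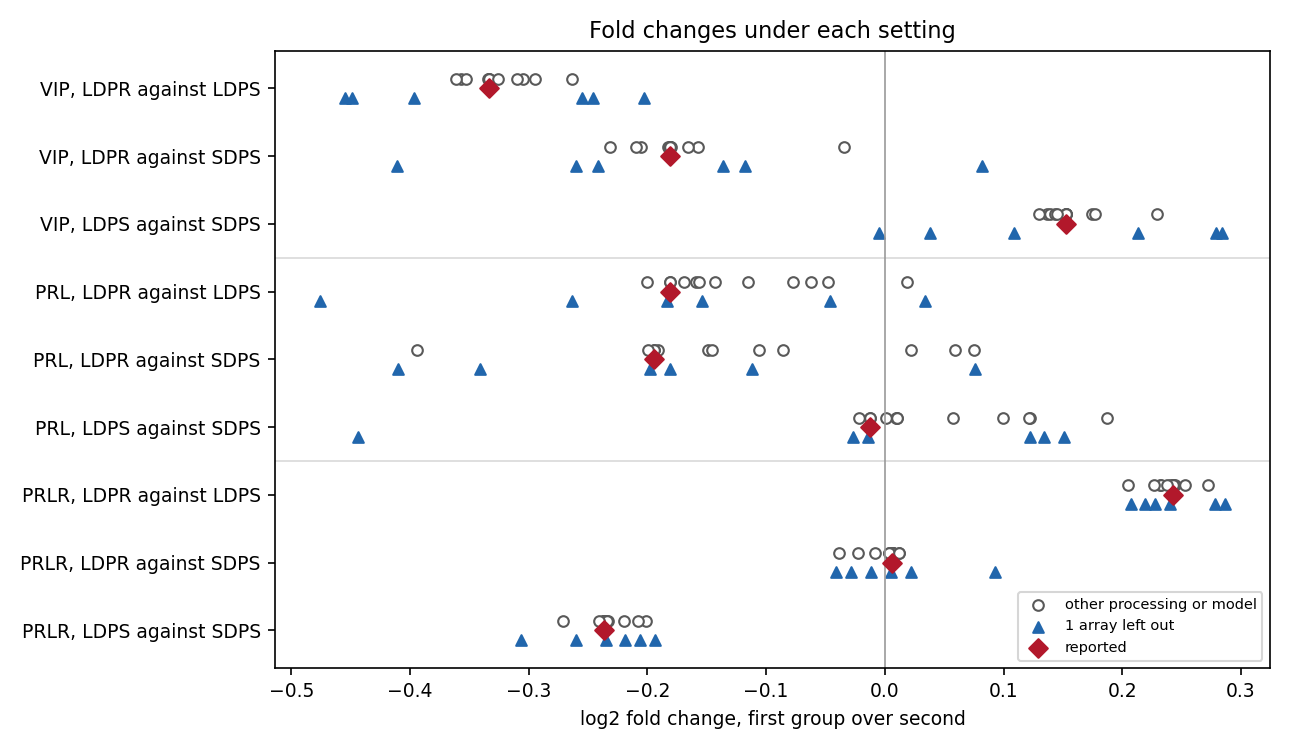
Log2 fold changes of VIP, PRL and PRLR (horizontal axis) in each comparison as reported (red diamonds), under other processing or models (open circles) and with 1 array left out (blue triangles). PRLR stays between 0.20 and 0.29 in LDPR over LDPS hens, while PRL falls on either side of 0 in all 3 comparisons.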

How the data were processed

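Premammillary RNA from 12 pools was measured on 6 arrays with 2 colours. Per the file headers, the authors quantified spots in BlueFuse for Microarrays 3.6 (build 7145) and deposited intensity as 1 amplitude per channel, with a confidence score and a fraction-like probability of signal per spot, per the file headers. The deposited table of log2 intensities served as an alternative, made by a normalisation that no source used here states.

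Spots with a confidence score under 0.1 were left out, and tests covered the 18012 of 20460 chicken probes that 5 or more arrays had measured. Ratios were normalised by loess (span 0.3, 4 iterations) and fitted with limma 3.58.1 in R 4.3.3 over all arrays with the 3 groups and a dye term. Tests were two-sided with 2 to 3 residual and 6.64 prior degrees of freedom, and adjusted p-values are Benjamini-Hochberg over all tested probes. Precision is limited by the number of arrays, and log2 fold changes had a median SE of 0.11. The code was tested on simulated data. Levels combine the mean and the normalised ratio of a spot.

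The members and lists were chosen with earlier results of these data known. Lists held 183 genes, of which 93 were on the array and 84 were tested, with the brightest probe per gene. Genes were named where a list member had an unadjusted p under 0.05, at most 6 per list and comparison, beside a fixed set around VIP and prolactin, and the 3 genes most like each member in pattern. Deviations of pools with the same number correlated at 0.25 to 0.65 in LDPS against SDPS. Every pair there exceeded 0.1, and the numbers were read as pairs. The reported fit has no term for the number, which entered only an alternative fit as a block. In LDPS against SDPS numbers 1 and 2 shared an array (r = 0.65 and 0.62). Numbers 3 and 4 were on other arrays and had the same dye within each pair (r = 0.27 and 0.25). A pairing of the pools cannot be told apart from array or dye there. The correlations were -0.13 to 0.72 in LDPR against LDPS and -0.44 to -0.18 in LDPR against SDPS, where the numbers were not read as pairs. Pools of the same number on a shared array correlated at 0.34 to 0.72. Alternatives changed the normalisation, filters, dye term, model, value table and arrays.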

Additional observations from a re-analysis of the deposited data

Results flagged for a closer look

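A probe described as similar to prolactin-b, with no symbol and chosen by its description after the files had been seen, had a normalised log2 level of 9.43 in SDPS pool 4, far from the other SDPS pools at 8.66, 8.71 and 8.78. Such a gap flags about 1 in 20 groups by chance. On the same array LDPR pool 2 read 11.7, against 8.82, 8.91 and 9.34 in the other LDPR pools, 8.64 to 9.18 in LDPS pools and that 9.43 in SDPS pool 4. The probe gave 0.85 in LDPR over SDPS hens (SE 0.29, unadjusted p = 0.0151, limma adjusted p = 0.451), and 0.16 without that array.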

How the results depend on the processing

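Over 18 alternatives, the log2 fold changes of VIP, PRL and PRLR in 3 comparisons gave 162 values, of which 135 kept both direction and side of the threshold, 26 reversed and 1 passed. The value that passed came from the fit on separate channels with the replicate number as a block, where VIP in LDPR over LDPS hens was -0.36 (limma adjusted p = 0.0343). That block called 43 probes in LDPS over SDPS hens, 1321 (7.89%) in LDPR over LDPS, 23 in LDPR over SDPS and 847 for any difference, and separate channels without it called 5, 648, 48 and 303. Every pool correlated best with its own number in LDPS against SDPS (8 of 8), against 4 of 8 in LDPR against LDPS and 0 of 8 in LDPR against SDPS. Pools of the same number shared an array for numbers 1 and 2 in LDPS against SDPS and for 3 and 4 in LDPR against LDPS. In LDPR against SDPS none did, so pairing and shared hybridisation cannot be told apart in these counts. PRL in LDPS over SDPS hens gave 0.10 with loess by print tip, 0.0573 with arrays scaled to each other, 0.00982 with an offset of 50, 0.0101 with all spots kept, 0.12 with a confidence minimum of 0.3, 0.19 on direct arrays, 0.000946 on separate channels, 0.12 with the block, 0.0105 from the authors' deposited table and 0.13 without the array quantified on another date (LDPR pool 3 and LDPS pool 3). PRL in LDPR over LDPS gave 0.0187 on direct arrays, and in LDPR over SDPS 0.0217 with print-tip loess, 0.0751 with the minimum of 0.3 and 0.0594 with the block. PRLR in LDPR over SDPS gave -0.0390 with scaling, -0.0227 on direct arrays, -0.00850 on separate channels and -0.0116 without that array. With 1 array left out, VIP ran from -0.0051 to 0.28 in LDPS over SDPS, -0.45 to -0.20 in LDPR over LDPS and -0.41 to 0.082 in LDPR over SDPS, PRL from -0.44 to 0.15, -0.48 to 0.034 and -0.41 to 0.076, and PRLR from -0.31 to -0.19, 0.21 to 0.29 and -0.041 to 0.093. TH in LDPR over LDPS gave -0.0289 with print-tip loess, -0.0282 with scaling, -0.025 with the minimum of 0.3, -0.0338 on direct arrays, -0.0333 on separate channels, -0.0724 with the block and -0.019 to 0.064 with 1 array left out. SOCS2 gave -0.19 with print-tip loess, -0.20 with scaling, -0.25 with all spots and -0.48 to 0.45 with 1 array left out, GH1 -0.22 to 0.037 with 1 array left out, POMC -0.00495 on direct arrays, and secretin in LDPS over SDPS -0.031 to 0.14 with 1 array left out. Adjusted calls in LDPS over SDPS hens (0 as reported, 780 unadjusted) numbered 1 with print-tip loess, scaling, the offset, the minimum of 0.3 and the deposited table. In LDPR over LDPS (3 as reported) they numbered 18 with print-tip loess, 31 with scaling and 10 with the minimum of 0.3. They numbered 0 with all spots, no dye term, direct arrays or without the array of another date. With 1 array left out they numbered 0 to 6. In LDPR over SDPS (0 as reported, 1686 unadjusted) they numbered 1 with scaling and 0 to 4 with 1 array left out. For any difference (2 as reported) they numbered 0 with median centring, all spots, no dye term or without the array of another date. They numbered 6 with print-tip loess, 8 with scaling and 0 to 11 with 1 array left out. The filter on dim probes removed none, and leaving out the dye term does not move a member's fold change. These settings could not reverse any of the 162 values. PRL lies near the empty-spot level, and pools of hens and 2 to 3 residual degrees of freedom limit what any single probe can show.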
